A study of Mus musculus with 6 samples.

Results

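Immediate early genes are a set of 10 genes (Fos, Fosb, Jun, Junb, Jund, Egr1, Atf3, Ier2, Zfp36 and Dusp1) chosen by name as genes known to respond to the isolation of cells. The rule held no measured value, but earlier results of these data were known when the genes were chosen. The 10 genes were read from a table of counts for 37991 genes in cells labelled as bone endothelial cells (BECs) of 12-week-old mice. They were found by Ensembl identifier, with symbols from the GENCODE M39 annotation of GRCm39. All 10 were in the table, and all 10 were among the 19480 genes that passed the filter on low counts.

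The table holds 6 libraries, 3 from female and 3 from male mice of the strain c57/Bl6, with cells taken fresh from the tibia and purified by endomucin, a surface protein of bone vessels. No treatment or transgene is given for either sex, so the sexes differ by label alone. In the study's methods bones were crushed, digested with collagenase at 37°C and freed of red cells before endomucin-coated beads were added, and all 6 libraries passed through these steps. The labels do not say whether a library is 1 mouse or a pool, so the p-values below measure only the spread between these libraries, which may be technical.

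Immediate early genes are transcribed within minutes of a stimulus, without new protein synthesis, because the transcription factors that switch them on are already bound or waiting in the cell and need only be phosphorylated. MAP kinases and cyclic AMP signalling are the main routes, and their transcripts are short-lived. Enzymatic digestion of a tissue at body temperature is a known stimulus, and Fos, Jun and Egr1 are widely used as signs of dissociation in freshly isolated cells. Several members switch the response off again, by removing phosphate from the MAP kinases or by speeding the decay of transcripts.

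The promoters of these genes are where such signals arrive, and those of 5 members are shown, which carry a cyclic AMP response element (CRE), its core on the strand of the gene, or a CArG box, the core of the serum response element. RefSeq promoters (GRCm38.p6, from 250 bases before to 50 bases after the annotated start) were given for 8 of the 10 members, Egr1 and Ier2 being without an entry. Each is printed 5′ to 3′ on the strand of the gene, and capitals mark every CRE (TGACGTCA), CRE core (TGACG) and CArG box, searched on both strands.
Fos, chr12:85473640-85473939, plus strand: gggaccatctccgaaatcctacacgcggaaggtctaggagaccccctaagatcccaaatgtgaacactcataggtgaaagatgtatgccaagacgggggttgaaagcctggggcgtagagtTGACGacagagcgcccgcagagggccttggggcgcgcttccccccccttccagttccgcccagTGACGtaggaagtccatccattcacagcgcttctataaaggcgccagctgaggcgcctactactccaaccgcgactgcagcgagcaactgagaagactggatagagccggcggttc
Fosb, chr7:19309996-19310295, minus strand: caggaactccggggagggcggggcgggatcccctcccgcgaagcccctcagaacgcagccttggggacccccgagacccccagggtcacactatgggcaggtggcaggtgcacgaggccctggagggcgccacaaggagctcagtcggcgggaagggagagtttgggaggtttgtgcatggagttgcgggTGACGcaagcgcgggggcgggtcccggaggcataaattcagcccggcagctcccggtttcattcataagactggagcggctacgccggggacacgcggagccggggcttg
Junb, chr8:84978699-84978998, minus strand: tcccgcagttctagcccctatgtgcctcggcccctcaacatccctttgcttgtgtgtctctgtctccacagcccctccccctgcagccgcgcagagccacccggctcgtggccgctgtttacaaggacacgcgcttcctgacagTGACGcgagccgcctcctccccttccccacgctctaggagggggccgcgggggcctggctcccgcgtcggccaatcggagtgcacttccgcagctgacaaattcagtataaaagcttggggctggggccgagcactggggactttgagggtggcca
Zfp36, chr7:28379179-28379478, minus strand: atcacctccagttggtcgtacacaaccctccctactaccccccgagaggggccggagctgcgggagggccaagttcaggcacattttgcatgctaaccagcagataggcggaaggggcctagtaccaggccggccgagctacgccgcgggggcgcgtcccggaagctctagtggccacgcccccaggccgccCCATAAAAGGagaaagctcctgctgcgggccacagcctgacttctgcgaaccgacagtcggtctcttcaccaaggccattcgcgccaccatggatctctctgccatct
Dusp1, chr17:26508423-26508722, minus strand: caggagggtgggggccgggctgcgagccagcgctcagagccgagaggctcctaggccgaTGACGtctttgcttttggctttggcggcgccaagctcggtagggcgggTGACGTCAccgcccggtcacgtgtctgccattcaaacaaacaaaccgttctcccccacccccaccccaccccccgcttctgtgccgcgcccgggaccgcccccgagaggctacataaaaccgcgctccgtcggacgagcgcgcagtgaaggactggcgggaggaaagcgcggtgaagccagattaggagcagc

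Dusp1 was the 1 member of 8 with a full CRE, at -143 relative to the annotated start, and 1.80% of the 32544 mouse promoters of this length hold these letters. The CRE core was found in 5 of 8 members and in 20.9% of all promoters. Fos had it at -129 and -66, Fosb at -60, Junb at -106 and Dusp1 at -191 as well as within its CRE. Atf3, whose promoter is not printed, had it on the other strand, at -7. Zfp36 was the 1 member with a CArG box, at -58 and sharing its first base with a GC box, against 1.64% of all promoters. A binding site of the EGR family (GCGNGGGCG, 5.60% of all promoters) was found in Fosb and Zfp36, overlapping a GC box in Fosb. A GC box (GGGCGG, 35.9%) was found in 6 members and the AP-1 site TGANTCA (7.79%) in none of the 8. The TATA box letters TATAAA (13.6%) were found in Fos, at -33, and in Junb, at 0, which is the annotated start itself. A match describes these letters in this window, and the count table holds no measurement of binding.

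Total counts lay between 47678806 and 58325745, and the detection floor of 3 counts corresponded to between 0.0514 and 0.0629 CPM (counts scaled to library size with edgeR's TMM factors), covering counting error only. The labelled sex was borne out by Xist, at 152 to 364 CPM in females and at most 0.702 CPM in males, and by Ddx3y, at most 1.92 CPM in females and at least 48.2 CPM in males. The label BEC was checked against marker genes, whose sums went against a fraction made up mainly of endothelial cells. Emcn, which encodes the endomucin used for purification, had 5.35 to 10.5 CPM in females and 3.08 to 6.72 CPM in males. All 14 endothelial markers were above 3 counts in every library, but they summed to 359 to 490.2 CPM in females and 218 to 312 CPM in males. The 14 neutrophil markers, all of them above 3 counts in every library, summed to 19330 to 23580 CPM in females and 32880 to 44800 CPM in males. The 9 erythroid markers gave 12130 to 17440 CPM and 18460 to 27130 CPM, the 7 B cell markers found 4567 to 5571 CPM and 4434 to 5589 CPM, and the 8 macrophage markers 4219 to 4438 CPM and 2790 to 3771 CPM. The 8 stromal markers gave 1474 to 3033 CPM and 1233 to 2373 CPM, the 6 of T and NK cells 76.6 to 88.2 CPM and 66.2 to 79.9 CPM, and the 4 of megakaryocytes 45.8 to 179 CPM and 34.6 to 93.5 CPM. Immediate early genes are expressed in all of these cell types, so a level below is that of the whole purified fraction, and fewer cells of a type and less RNA per cell cannot be told apart.

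Together the 10 genes made up 607, 678 and 522 CPM in female replicates 1, 2 and 3, and 708, 886 and 668 CPM in male replicates 1, 2 and 3. This was 602 ± 78.4 CPM (SD, n = 3) in females and 754 ± 116 CPM (SD, n = 3) in males, and the lowest male library lay below the highest female library. The highest sum was that of male replicate 2, a library in which Fos, Fosb, Egr1, Dusp1 and Junb stood well above the other 5. That library was singled out after its values were seen, so the sex comparison of each member, and of the related genes with a call in DESeq2's test, is given with and without it.

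Levels were compared between genes as CPM per kilobase of exon (the union of annotated exons). Jund was the most abundant member, with a mean of 185 CPM per kilobase and a range of 149 to 205 over the 6 libraries, above the range of every other member. Ier2 followed with 41.2, Junb with 36.6 and Zfp36 with 31.3 CPM per kilobase. Fos had 13.7, Jun 7.57, Dusp1 7.43 and Egr1 4.62 CPM per kilobase. From Ier2 down to Egr1 the ranges of neighbours in this order overlapped, and with the length of the canonical transcript Junb (48.1) came before Ier2 (41.2) and Dusp1 (12.4) before Jun (7.57). Atf3, with 2.10 CPM per kilobase, and Fosb, with 0.456, lay below, without overlap with their neighbours. The leading member, Jund, is the AP-1 subunit that many resting cells express steadily, while Fos and Fosb are the subunits best known as transient.

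The AP-1 transcription factor is a dimer of a Fos and a Jun protein, or of 2 Jun proteins, and 5 members encode its subunits. Fos had 23.1, 22.8 and 17.9 CPM in female replicates 1, 2 and 3, and 25.6, 82.6 and 21.3 CPM in male replicates 1, 2 and 3. Male replicate 2 was 3.22 times the next highest library, and the other 5 libraries lay within a factor of 1.43. The 4069 counts behind this value place it between 80.1 and 85.2 CPM (exact Poisson interval, 95%, counting error only). Fosb had 2.69, 2.33 and 2.39 CPM in females and 1.97, 6.58 and 1.12 CPM in males. Male replicate 2 was again highest, 2.45 times the next library, and the other 2 males were below all 3 females. Fosb was the member with the fewest counts, from 53 in male replicate 3 (1.12 CPM, Poisson interval 0.837 to 1.46) to 324 in male replicate 2.

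Junb, the Jun protein that often restrains Jun, had 68.9, 74.4 and 62.0 CPM in females and 81.0, 146 and 90.8 CPM in males. All males lay above all females, and male replicate 2 was 1.60 times the next library. Jun had 22.2, 22.2 and 24.2 CPM in females and 21.4, 31.8 and 23.1 CPM in males. Apart from male replicate 2, at 1.32 times the next library, the sexes overlapped. Jund had 288, 342 and 249 CPM in females and 341, 312 and 321 CPM in males. Here the highest library was female replicate 2 and the sexes overlapped, so the most abundant subunit did not share the pattern of Fos.

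Junb shares 173 exon bases with Prdx2 on the opposite strand, Jund 877 with Gm11175, Jun 528 with Junos, and Dusp1 38 with Ergic1, so reads could have been divided between them if strand was not used in counting. Zfp36 shares 125 bases with Gm44710 and Junb 145 with Gm65321, which have no row in the table analysed here. Prdx2, an antioxidant enzyme abundant in red cells, had 192, 243 and 299 CPM in females and 248, 195 and 279.9 CPM in males. Ergic1 had 31.4, 30.0 and 25.9 CPM in females and 25.5, 22.7 and 27.3 CPM in males, a level like that of Dusp1. Gm11175 and Junos were below 2 CPM in every library. The part of shared reads in the levels of the members was not tested.

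Egr1, a zinc finger transcription factor induced by growth factors and stress, had 19.2, 18.2 and 15.5 CPM in females and 19.9, 35.0 and 16.8 CPM in males. Male replicate 2 was 1.76 times the next library, and male replicate 3 lay within the range of the females. Ier2, a small nuclear protein of the same early response, had 51.1, 64.6 and 47.7 CPM in females and 65.5, 81.7 and 65.9 CPM in males. All males were above all females, though male replicate 1 was above female replicate 2 by less than 1 CPM. Atf3, a transcription factor of the integrated stress response that can repress its targets, had 4.39, 5.86 and 5.35 CPM in females and 4.82, 5.05 and 5.23 CPM in males. The males lay inside the range of the females, and male replicate 2 stood at 0.862 times the highest library.

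The last pair of members end the response. Dusp1 encodes a phosphatase that inactivates the MAP kinases, and it had 17.1, 20.9 and 16.5 CPM in females and 23.8, 44.6 and 25.3 CPM in males. All males were above all females, and male replicate 2 was 1.76 times the next library. Zfp36 encodes tristetraprolin, which binds AU-rich transcripts and brings about their decay, and it had 109.8, 105 and 80.9 CPM in females and 123, 142 and 97.9 CPM in males. Male replicate 2 was highest by a factor of 1.15, and male replicate 3 lay below 2 of the females.

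**Figure D1:**
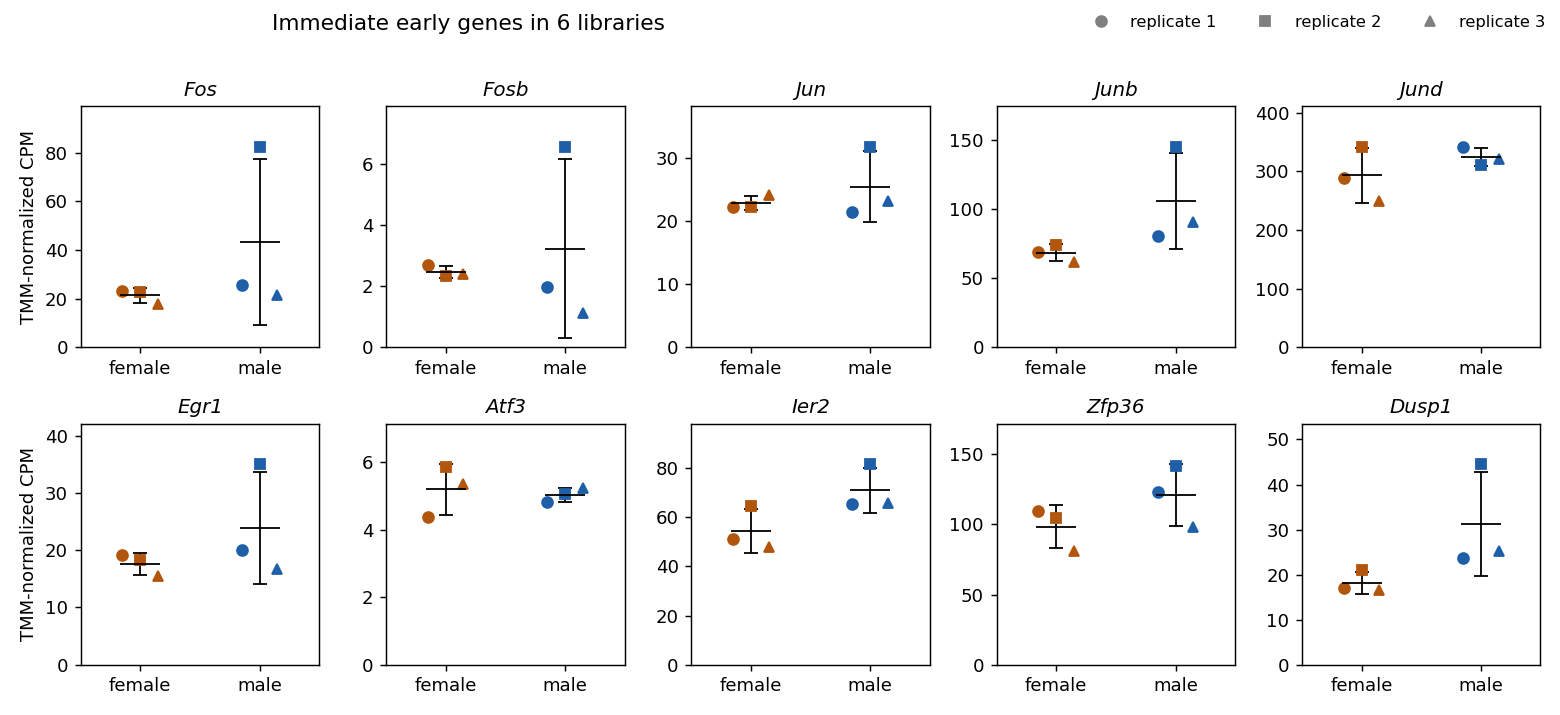
TMM-normalized CPM (vertical axis, linear, from 0) of each of the 10 genes in the 3 female (orange) and 3 male (blue) libraries, with circles, squares and triangles for replicates 1, 2 and 3 and black lines for the mean and SD. The blue square, male replicate 2, stands at 82.6 CPM for Fos against at most 25.6 in the other libraries, and lies within the range of the other libraries for Jund and Atf3.

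Male replicate 2 was the highest of the 6 libraries for 8 of 10 members, against 21.8% of all genes tested. For 6 members (Fos, Fosb, Jun, Junb, Egr1 and Dusp1) it exceeded every other library by more than 1.3 times, which held for 4.53% of all genes. The median member stood there at 1.67 times the mean of the other 5 libraries, and the median of all genes tested at 0.992 times. By member this ratio was 3.73 for Fos, 3.13 for Fosb, 2.15 for Dusp1, 1.96 for Egr1 and 1.93 for Junb. It was 1.41 for Jun, 1.39 for Ier2, 1.37 for Zfp36, 1.01 for Jund and 0.985 for Atf3. Fos and Fosb were thus furthest from the other libraries, and Jund and Atf3 stood at their level. This library also had the highest sum of neutrophil markers (44800 CPM) and the lowest of endothelial (218 CPM), stromal (1233 CPM), macrophage (2790 CPM), B cell (4434 CPM) and megakaryocyte (34.6 CPM) markers. Transcripts of the mitochondrial genome were highest there too, at 109700 CPM, against 71500 and 94660 CPM in the other males and 73550 to 105100 CPM in females. The part of these cells and transcripts in the levels of the members was not tested. Its total, 49236654 counts, was within the range of the others.

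**Figure D2:**
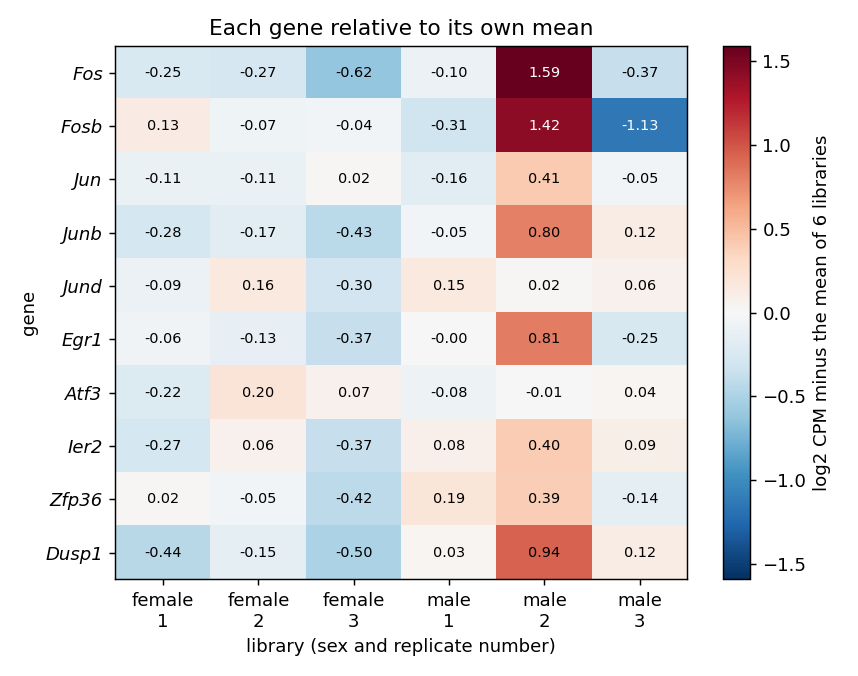
Log2 CPM of each gene (rows) in each library (columns) minus the mean of that gene over the 6 libraries, with red for values above and blue for values below this mean. The column of male replicate 2 is red for 8 genes and near 0 for Jund and Atf3.

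The 10 members showed 6 different orders of the libraries, and 2 of these orders were each shared by 3 members. Fos, Egr1 and Zfp36 gave an identical order of the 6 libraries, from male replicate 2 down through male replicate 1, female replicates 1 and 2 and male replicate 3 to female replicate 3, an order shown by 0.821% of all genes tested. Junb, Ier2 and Dusp1 shared another order, with the males (replicates 2, 3 and 1) above the females (replicates 2, 1 and 3), which 0.498% of all genes showed. The orders were compared after the values were seen, and some steps are small, such as 23.1 against 22.8 CPM for Fos in female replicates 1 and 2. Outside the 10 members, of 97 tested genes in the related lists described below, Trib1 had the first order and Klf6 the second. Fosb, Jun, Jund and Atf3 each had an order that no other member shared, and Map2k1, a kinase of the upstream list, had that of Jund. Jun ran against Fos once male replicate 2 was set aside, with its highest level in female replicate 3 (24.2 CPM), where Fos was lowest, and its lowest in male replicate 1 (21.4 CPM), where Fos was highest. The same holds for Jun against Egr1 and Zfp36.

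Males were set against females in a quasi-likelihood fit (edgeR), and p-values were adjusted by Benjamini-Hochberg over all 19480 genes. None of the 10 members passed an adjusted p of 0.05, which 0.0411% of all genes (8 genes) passed. At an unadjusted p under 0.05 there were 3 members, Dusp1, Junb and Ier2, against 9.79% of all genes. DESeq2's Wald test, the tool named in the study's methods, called 1 member, Dusp1 (adjusted p = 0.0435), with 2.08% of the genes it gave an adjusted p called. The log2 fold change of males over females was above 0 for 9 members, against 49.8% of all genes, and the median was 0.38 for the members and -0.00125 for all genes. The 3 members with an unadjusted p under 0.05 were also the 3 in which all males lay above all females, a pattern that 7.25% of all genes showed.

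Dusp1 had the smallest p of the members. Its level was 18.2 ± 2.40 CPM (SD, n = 3) in females and 31.2 ± 11.6 CPM (SD, n = 3) in males, a log2 male-to-female ratio of 0.78 (SE 0.23, edgeR adjusted p = 0.295), with a 95% interval of 0.27 to 1.29. Without male replicate 2 it was 0.44, with an interval of 0.07 to 0.81 and an adjusted p of 0.943 from edgeR. For Junb, 68.4 ± 6.22 CPM (SD, n = 3) in females and 106 ± 34.9 CPM (SD, n = 3) in males gave 0.63 (SE 0.20, edgeR adjusted p = 0.336). Without male replicate 2 this was 0.33 (edgeR adjusted p = 0.993). For Ier2, 54.5 ± 8.93 CPM (SD, n = 3) and 71.0 ± 9.24 CPM (SD, n = 3) gave 0.38 (SE 0.15, edgeR adjusted p = 0.420), and 0.27 without male replicate 2. All males lay above all females in these 3 genes, so leaving out a male library could not test their direction. Their fold changes were smaller without the high library.

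Fos had the largest fold change of the members. Its mean was 21.3 ± 2.93 CPM (SD, n = 3) in females and 43.2 ± 34.2 CPM (SD, n = 3) in males, a log2 male-to-female ratio of 1.02 (SE 0.49, edgeR adjusted p = 0.561) with an interval of -0.13 to 2.17. Without male replicate 2 it was 0.14, with an interval of -0.24 to 0.53. Egr1 went from 0.44 (edgeR adjusted p = 0.598) to 0.06 when that library was left out. Fosb turned from 0.38 (edgeR adjusted p = 0.856) to -0.67, with an interval of -1.49 to 0.15, and Jun from 0.16 (edgeR adjusted p = 0.797) to -0.04. Without male replicate 2 the log2 fold changes of Fos, Egr1 and Jun therefore lay between -0.04 and 0.14, while that of Fosb was below 0 and larger in size.

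Zfp36 had 98.4 ± 15.4 CPM (SD, n = 3) in females and 121 ± 22.1 CPM (SD, n = 3) in males, which gave 0.30 (edgeR adjusted p = 0.596), and 0.17 without male replicate 2. Jund, with 293 ± 46.7 CPM (SD, n = 3) and 324 ± 14.9 CPM (SD, n = 3), gave 0.15 (edgeR adjusted p = 0.782), with an interval of -0.17 to 0.46, and 0.18 without male replicate 2. Atf3 was the member with a fold change below 0, at -0.05 (edgeR adjusted p = 0.964) with an interval of -0.52 to 0.43, and stayed at -0.05 without that library. Without male replicate 2 the median over the 10 members was 0.16, against -0.01 over all genes.

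**Figure D3:**
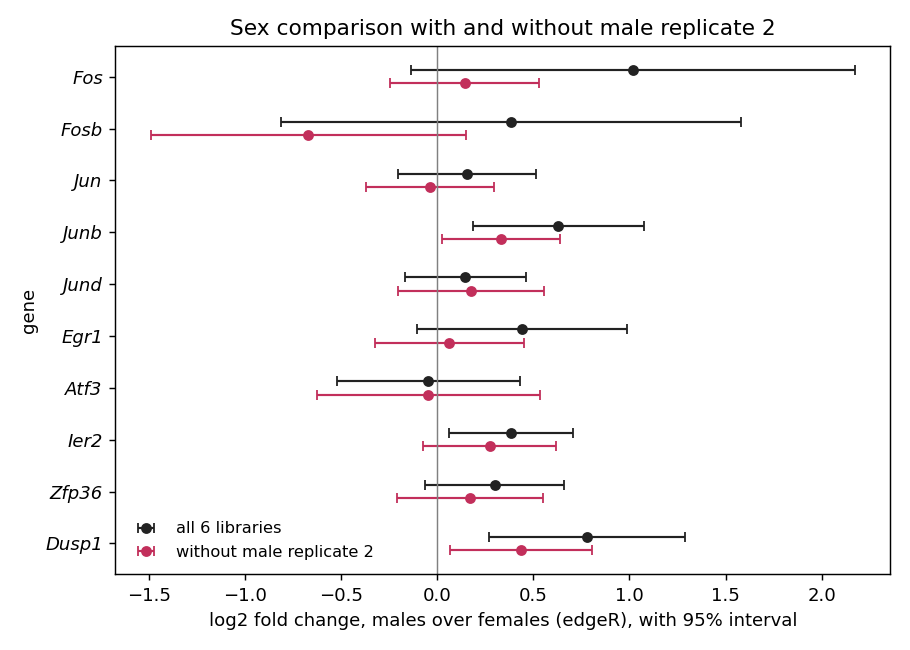
Log2 fold change of males over females for each gene (horizontal axis, edgeR) with its 95% interval, from all 6 libraries (black) and without male replicate 2 (red). Leaving out that library moves Fos from 1.02 to 0.14 and Fosb from 0.38 to -0.67, while Junb (0.33) and Dusp1 (0.44) stay above 0 with intervals above 0.

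The summed neutrophil markers did not overlap between the sexes either, with males higher, nor did the summed erythroid markers. For the sums of macrophage and endothelial markers every male library lay below every female library. Single endothelial markers differed in this. Emcn and Pecam1 (82.6 to 101 CPM in females, 68.5 to 90.6 CPM in males) overlapped, and Stab2 (106 to 124 CPM and 54.7 to 84.9 CPM) did not. The part of these cell types in the difference of Junb, Ier2 and Dusp1 was not tested.

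Both sexes carry replicate numbers 1 to 3 in the labels, and libraries with the same number were compared through each member's deviation from the mean log2 CPM of its own sex. The labels also hold sample codes, F1 and M3 for replicate 1, F2 and M4 for replicate 2, and F5 and M5 for replicate 3. These codes share a number between the sexes in replicate 3 alone. In replicate 3, 9 members deviated the same way in both sexes, against 65.7% of all genes, and 8 of them were below the mean in both. Fos (-0.24 in the female and -0.74 in the male), Egr1 and Zfp36 were lowest in replicate 3 of both sexes, as were 20.3% of all genes. In replicate 2, 7 members deviated the same way, all 7 above the mean, against 44.6% of all genes. The sizes differed, with a median deviation of 0.12 in female replicate 2 and 0.43 in male replicate 2. Fos was 0.11 above the mean in the female and 1.21 above it in the male. In replicate 1, 5 members deviated the same way, against 62.2% of all genes. Between libraries of different number, 3 to 6 members deviated the same way, against 32.7% to 60.1% of all genes. The 6 were found for female replicate 1 with male replicate 2 and for female replicate 3 with male replicate 1. The male mean includes male replicate 2, so its high values place male replicates 1 and 3 lower in this measure. Agreement in replicate 3 is therefore not separate from the high level of that library. The highest libraries of each sex for Junb, Ier2 and Dusp1 were thus both numbered 2, and the lowest were numbered 3 in females and 1 in males.

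**Figure D4:**
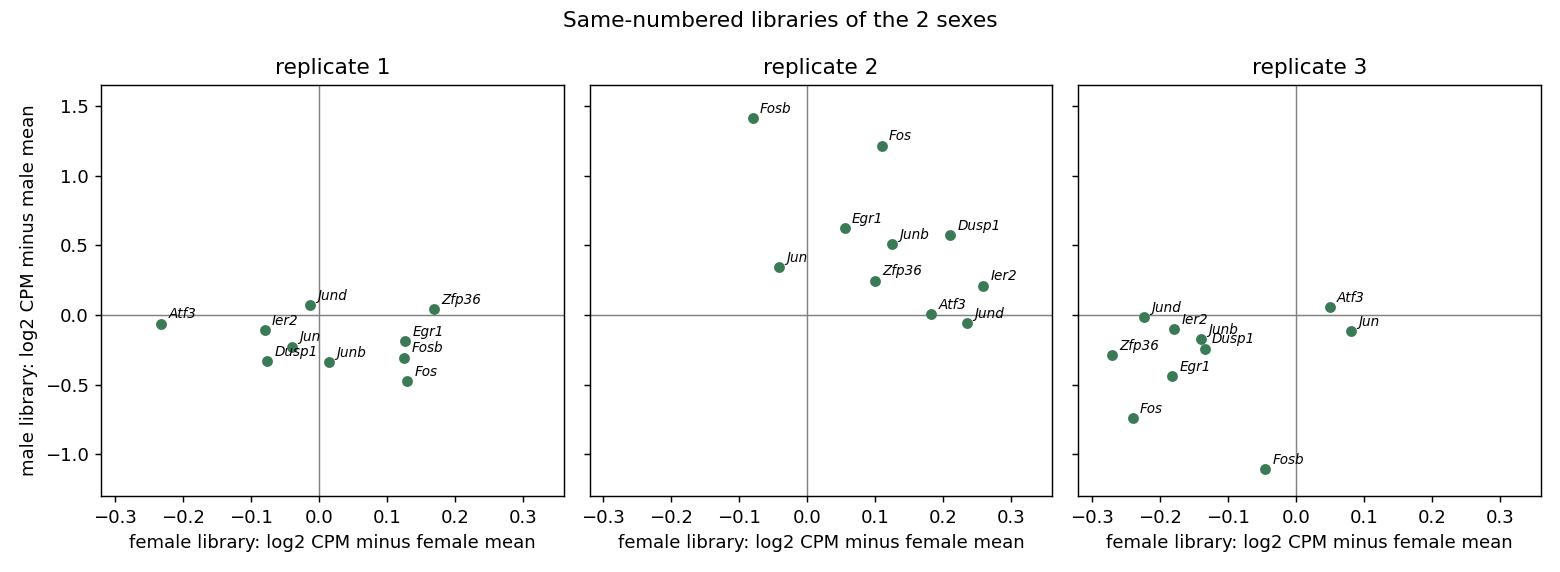
Deviation of each gene from the mean log2 CPM of its sex in the female library (horizontal axis) and in the male library (vertical axis, a wider scale) of the same replicate number, with 1 point for each of the 10 genes. In replicate 3, 8 points lie below the mean in both sexes, and in replicate 2, 7 points lie above it in both.

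Related genes were taken from 5 lists holding 100 genes, of which 97 were tested. Egr4, Csf2 and Cxcl1 did not pass the filter, with at most 7 counts in a library. None of the 97 passed an adjusted p of 0.05 in edgeR's test (0.0411% of all genes), 14 had an unadjusted p under 0.05 (9.79% of all genes), and DESeq2's Wald test called 6 (2.08% of the genes with an adjusted p in that test, which gave none to Fosl1 and Il6), namely Fosl2, Socs3, Gadd45a, Il1b, Ptgs2 and Hmox1. Without male replicate 2, edgeR's log2 fold changes were 0.54 for Fosl2, 0.70 for Socs3, 0.52 for Gadd45a and -0.61 for Hmox1, and those of Il1b and Ptgs2 are given with their levels.

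Of 18 tested transcription factors of the same early response, such as the other Fos, Egr, Klf and Nr4a genes, 13 had a log2 fold change above 0, with a median of 0.13. Male replicate 2 was the highest library for 8 of them (21.8% of all genes), and for 1 by more than 1.3 times (4.53% of all genes). Fosl2, a further AP-1 subunit, had 40.2, 48.02 and 44.9 CPM in females and 69.4, 85.8 and 59.4 CPM in males. All its males were above all its females, with a log2 male-to-female ratio of 0.69 (SE 0.15, edgeR adjusted p = 0.132, DESeq2 adjusted p = 0.00551). Klf2, a factor that endothelial cells express under blood flow, was the most abundant, with 222 ± 44.0 CPM (SD, n = 3) in females and 229 ± 24.8 CPM (SD, n = 3) in males. Klf6 had 122 ± 8.92 CPM (SD, n = 3) and 156 ± 8.36 CPM (SD, n = 3), without overlap (log2 fold change 0.35, adjusted p = 0.336 from edgeR). Fosl1, a Fos protein close to the detection limit here, reached at most 0.485 CPM, and male replicate 1 was under the floor.

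Among 30 feedback and effector genes of the response, 23 had a fold change above 0 (median 0.17), and 6 had all males above all females, against 7.25% of all genes. For 8 of the 30 the highest library was male replicate 2, a share near the 21.8% of all genes, and for 3 by more than 1.3 times (4.53% of all genes). Socs3, an inhibitor of cytokine signalling, had 10.1, 8.48 and 9.65 CPM in females and 15.6, 20.5 and 14.9 CPM in males, a log2 male-to-female ratio of 0.85 (SE 0.17, edgeR adjusted p = 0.115, DESeq2 adjusted p = 0.00135). Gadd45a, a stress sensor acting on the MAP kinases and the cell cycle, had 42.4 ± 3.04 CPM (SD, n = 3) and 64.5 ± 6.58 CPM (SD, n = 3), a log2 fold change of 0.61 (edgeR adjusted p = 0.108, DESeq2 adjusted p = 0.00420). In both genes male replicate 2 was the highest library, at 1.31 and 1.15 times the next. The abundant Btg1, a brake on proliferation (log2 fold change 0.20), Mcl1, which protects from apoptosis (0.17), and Zfp36l2, a relative of Zfp36 (0.09), had smaller fold changes, and in Zfp36l2 the sexes overlapped.

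The heat shock and chaperone genes, a second known response to tissue dissociation, went the other way by count. Of 15 tested, 12 had a log2 fold change below 0 (median -0.21), none had all males above all females (7.25% of all genes), and 4 had all males below all females (7.29% of all genes). Hmox1, which degrades haem and is abundant in macrophages that take up red cells, had 1215, 1883 and 1523 CPM in females and 894, 622 and 1127 CPM in males. Its log2 fold change was -0.81 (SE 0.23, edgeR adjusted p = 0.284, DESeq2 adjusted p = 0.0178), and the lowest library was male replicate 2. The macrophage markers, which were also lowest in male replicate 2, lay between 4219 and 4438 CPM in females and between 2790 and 3771 CPM in males, and their part in the level of Hmox1 was not tested. Hspa8, a constitutive chaperone, had 1115 ± 119 CPM (SD, n = 3) and 823 ± 108 CPM (SD, n = 3), and Hsph1 29.6 ± 2.24 CPM (SD, n = 3) and 20.5 ± 2.96 CPM (SD, n = 3), both without overlap. Hsp90ab1, with a log2 fold change of -0.16, overlapped. The inducible Hspa1a and Hspa1b, named after their values were seen, were the 2 genes of this list highest in male replicate 2, at 12.2 and 13.2 CPM against at most 9.76 and 10.2 CPM elsewhere. They are near-identical copies, so reads could have been divided between them.

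The kinases and transcription factors upstream of the early genes were divided in direction. Of 25 tested, 14 were above and 11 below 0, with a median log2 fold change of 0.04, and none exceeded 1.3 times every other library in male replicate 2. Mapk14, which encodes p38α, had 167 ± 14.3 CPM (SD, n = 3) in females and 177 ± 7.51 CPM (SD, n = 3) in males. Mapkapk2, its substrate, had a log2 fold change of -0.02. Mapk3, which encodes ERK1, had 88.2 ± 8.91 CPM (SD, n = 3) and 107 ± 0.799 CPM (SD, n = 3), a log2 fold change of 0.28 (edgeR adjusted p = 0.456). Map2k6, a kinase that activates p38, had -0.29 (edgeR adjusted p = 0.707). Activity of these kinases is set by phosphorylation, which counts of transcripts do not measure.

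Transcripts that Zfp36 is known to bind were also often highest in male replicate 2. Of 10 tested, 9 had a log2 fold change above 0 (median 0.47), and 6 were highest in that library, 4 of them by more than 1.3 times, against 21.8% and 4.53% of all genes. Il1b, which encodes the cytokine interleukin-1β, had 22.8, 23.8 and 23.0 CPM in females and 31.7, 81.1 and 45.6 CPM in males. All males were above all females, with a log2 male-to-female ratio of 1.19 (SE 0.29, edgeR adjusted p = 0.227, DESeq2 adjusted p = 9.59e-04), and male replicate 2 was 1.78 times the next library. Without that library it was 0.74 (edgeR adjusted p = 0.445). Ptgs2, which encodes the inducible cyclooxygenase, had 0.970, 1.08 and 1.3 CPM in females and 1.67, 5.64 and 2.32 CPM in males, a log2 fold change of 1.53 (edgeR adjusted p = 0.290, DESeq2 adjusted p = 0.0328), and 0.84 without male replicate 2 (edgeR adjusted p = 1). Both genes are expressed by neutrophils, whose markers summed to 44800 CPM in male replicate 2 and to 32880 and 39800 CPM in the other males, and the part of these cells was not tested. Ier3, an early response gene that is also in the feedback list, had 3.42 ± 0.574 CPM (SD, n = 3) and 5.06 ± 1.54 CPM (SD, n = 3), and Vegfa, the main growth factor of endothelial cells, 8.16 ± 2.00 CPM (SD, n = 3) and 10.6 ± 0.488 CPM (SD, n = 3). Il10, an anti-inflammatory cytokine, was lower in all males, at most 0.589 CPM against at least 0.748 CPM (log2 fold change -1.26, adjusted p = 0.509 from edgeR).

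**Figure D5:**
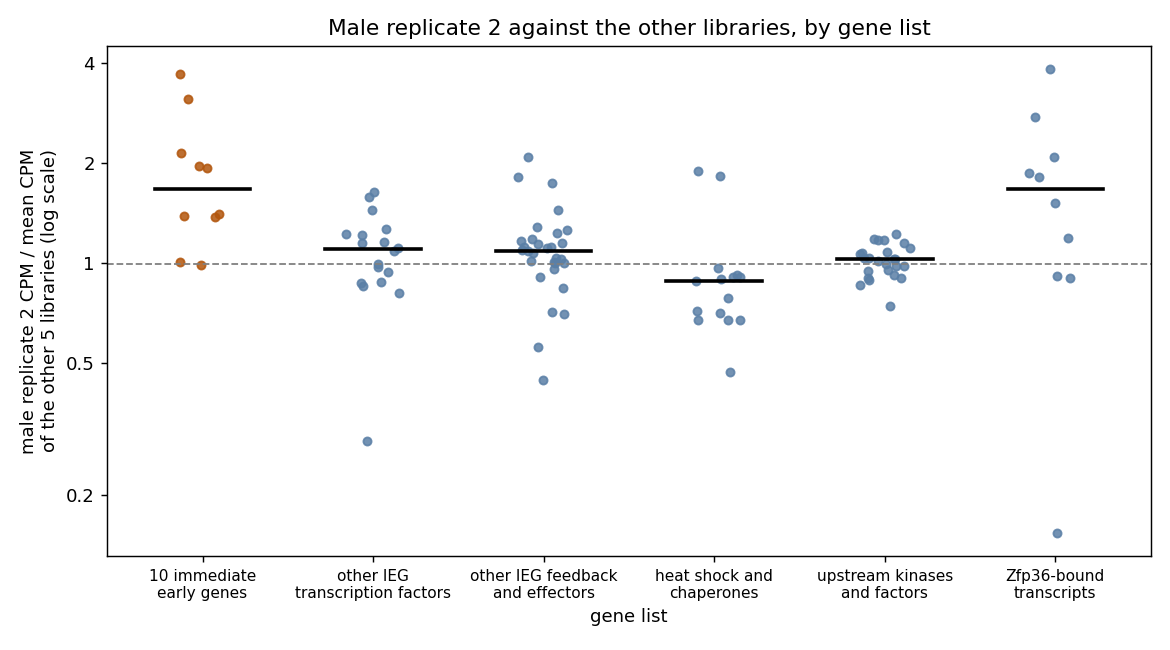
Ratio of the CPM in male replicate 2 to the mean CPM of the other 5 libraries (vertical axis, log scale) for each gene of the 10 immediate early genes (orange) and of the 5 related lists (blue), with black bars for the medians and a dashed line for the median of all genes tested, 0.992. The medians were 1.67 for the 10 genes, 1.10 and 1.09 for the other early transcription factors and feedback genes, 0.882 for heat shock genes, 1.03 for upstream genes and 1.67 for transcripts bound by Zfp36.

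Genes outside the early response lists were ranked by how closely their log2 CPM followed the mean of the members over the 6 libraries, among 10432 protein-coding genes with at least 5 CPM on average. The 10 closest were Lins1 (Pearson's r 0.977), C130050O18Rik (0.976), Rnf34 (0.972), Herc4 (0.971), Nabp1 (0.971), Osm (0.971), Tars2 (0.969), Zbtb8os (0.965), Slfn4 (0.963) and Utp23 (0.961). An r over 0.9 was reached by 100 genes, or 0.959% of the candidates. These values describe 6 libraries of which male replicate 2 was far from the rest, and without it r lay between 0.349 for Utp23 and 0.984 for Herc4. Osm, which encodes the cytokine oncostatin M, had 9.51, 8.61 and 6.97 CPM in females and 10.4, 24.1 and 10.3 CPM in males, close to the pattern of Fos. Slfn4, a Schlafen gene of myeloid cells, had 47.8, 41.3 and 27.4 CPM in females and 75.5, 227 and 47.3 CPM in males. For Fos alone the 5 closest were C130050O18Rik (0.989), Nabp1 (0.983), Zfp287 (0.979), Utp23 (0.978) and Osm (0.977), and without male replicate 2 their r lay between 0.486 for Utp23 and 0.821 for Osm.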

How the data were processed

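RNA of 6 libraries labelled as BECs was analysed. The authors deposited raw counts of reads on each gene, without any scaling. Per the labels the tools were TopHat2 2.0.11 and featureCounts, with mm9 and NCBIM37 as builds, on a directional polyA library of paired reads. The study's methods instead give STAR on GRCm39, featureCounts and a total RNA kit. They also state that the RNA samples of best quality in each set were picked before libraries were made. Annotation release and strand setting are not given in the sources used here. GENCODE M39 matched 31073 of 37991 identifiers, and the 6918 others held 3.81% of counts.

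Under R 4.3.3, edgeR 4.0.16 compared males with females (default low-count filter by sex, TMM, robust quasi-likelihood test, Benjamini-Hochberg adjustment). Standard errors came from the quasi-likelihood F. Alternatives were DESeq2 1.42.0, other scalings and filters, no robust estimation, the replicate number as a block and each library left out. The fits were tested on simulated data. Log2 CPM used a prior count of 2.

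The members and lists were chosen with earlier results of these data known. Named genes were the 10 members, in each list the 3 with the highest mean CPM and the 2 with the largest fold change, and the genes most like the members in log2 CPM. A gene that this rule names among the upstream kinases is not reported here.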

Additional observations from a re-analysis of the deposited data

How the results depend on the processing

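Of 150 values of the 10 members over all alternatives, 140 kept their direction and their side of an adjusted p of 0.05, 6 moved past it and 4 changed sign. The number of genes past 0.05, 8 in edgeR's test, was 14 with total counts alone, 98 with no filter and 359 in DESeq2's Wald test. It lay between 5 (without female replicate 2) and 96 (without male replicate 3) with each library left out. Members past 0.05, 0 in edgeR's test with 3 at an unadjusted p under 0.05, were 1 in DESeq2's test and 0 with any library left out. Genes of the related lists past 0.05, 0 in edgeR's test, were 1 with no filter, 6 in DESeq2's test and between 0 and 1 with each library left out, the 1 being without male replicate 3. Members whose sexes did not overlap, 3 in all libraries, were between 3 and 6, with 6 without male replicate 3, while the share of all genes rose from 14.5% to 32.2% there. Signs changed for Fosb (-0.67 without male replicate 2, between -0.67 and 0.79 over libraries left out), Jun (-0.0372 without male replicate 2, between -0.0372 and 0.26) and Atf3 (0.0488 without female replicate 2, between -0.14 and 0.0488). The cause was not tested.

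A fit with replicate block called 428 genes, 2 members (Dusp1, adjusted p = 0.0199, and Junb, 0.0462, from edgeR) and 3 genes of the related lists. DESeq2's test with this block, chosen after seeing the data, gave 721 genes, 3 members (Ier2 in addition) and 8 list genes, and turned Fosb to -0.0125. Same-numbered libraries deviated together with a correlation across genes of 0.194 for replicate 1, 0.0403 for replicate 2 and 0.298 for replicate 3, and male replicate 2 correlated best with female replicate 1 (0.131), so the numbers were not taken to pair the libraries. Depth limits Fosb most, with 53 counts in male replicate 3.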
